A study of Mus musculus with 16 samples.

Results

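The T cell acute lymphoblastic leukaemias (T-ALL) that arose under ICN in mice without p53 were compared by Miz1 status. They were chosen by their titles: 4 leukaemias express Miz1 without its POZ domain (deltaPOZ; 2 carry the suffix Lck and 2 the suffix Vav) and 2 have wild-type Miz1 (wt). These 6 libraries, 1 per mouse, are part of a series of 16 that measured gene expression by RNA sequencing. All 6 mice are C57Bl6, all are p53 ko and all had ICN-induced disease, where ICN is the active, intracellular part of the Notch receptor. The labels do not explain the suffixes Lck and Vav, so the cells in which Miz1 was altered cannot be stated. The sources used here give no age, sex or organ. The 6 corresponding ICN libraries with p53 wt serve as a comparison. Every library came from its own mouse, and p-values therefore reflect mouse-to-mouse spread.

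Miz1, encoded by Zbtb17, is a zinc finger transcription factor, and its POZ domain lets it form the multimers that bind stably to chromatin. It activates genes of autophagy and vesicle transport and the cell cycle inhibitors p15 and p21, and it can be turned into a repressor by MYC. In lymphocytes its POZ domain is needed for signalling through the interleukin 7 receptor and for survival of early T and B cell precursors, in part by restraining p53.

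The libraries held 36463524 to 53219412 gene counts and detected 19629 to 23972 genes. Wild-type mouse 1 stood apart: it had the fewest gene counts and the most genes. Of its counted alignments 63.7% were not unique, against 45.8% to 48.2% in the others. In it 8 predicted genes took 24820 CPM (gene counts scaled to library size with TMM factors) against 2.44 to 161 CPM. These predicted genes were picked after their values were seen. Some results, not all, are therefore also given without this mouse. Trp53 lay at 14.0 to 30.6 CPM in the 6 libraries, against a mean of 78.5 CPM in ICN p53-wt leukaemias with Miz1 wt and 101 CPM in those with deltaPOZ. Zbtb17 was read at 50.5 and 48.5 CPM in wild-type mice and at 44.2 to 63.3 CPM in deltaPOZ mice, and since counts cover the whole gene, this does not test the Miz1 labels. The T cell markers had a mean of 7.12 to 7.45 log2 CPM in every library. Erythroid markers summed to 8685 to 32380 CPM, so each sample also held many red cell transcripts.

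The promoters of 4 genes picked by their results here are shown, of which only Sox11 passed in edgeR. Sox11 was the gene that passed the test, Snx18 had the lowest p after Sox11 among the genes named for the Vav pair, and Ambra1 and Vamp4 are the reported Miz1 targets whose deltaPOZ mice all lay below both wild-type mice. Each sequence covers 250 bases before the RefSeq gene start on GRCm38.p6, with capitals at CACGTG, the palindromic E-box bound by MYC with MAX.
Sox11 (chr12:27342719-27342968, minus strand): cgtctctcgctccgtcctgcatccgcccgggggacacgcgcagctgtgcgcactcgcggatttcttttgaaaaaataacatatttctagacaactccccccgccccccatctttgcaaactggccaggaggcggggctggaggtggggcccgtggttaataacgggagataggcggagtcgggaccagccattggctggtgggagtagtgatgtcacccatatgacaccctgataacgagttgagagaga
Snx18 (chr13:113618565-113618814, minus strand): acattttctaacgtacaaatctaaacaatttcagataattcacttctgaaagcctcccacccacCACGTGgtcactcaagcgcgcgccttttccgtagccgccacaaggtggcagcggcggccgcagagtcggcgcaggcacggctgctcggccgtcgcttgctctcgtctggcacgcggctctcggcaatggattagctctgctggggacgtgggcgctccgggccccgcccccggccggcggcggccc
Vamp4 (chr1:162570265-162570514, plus strand): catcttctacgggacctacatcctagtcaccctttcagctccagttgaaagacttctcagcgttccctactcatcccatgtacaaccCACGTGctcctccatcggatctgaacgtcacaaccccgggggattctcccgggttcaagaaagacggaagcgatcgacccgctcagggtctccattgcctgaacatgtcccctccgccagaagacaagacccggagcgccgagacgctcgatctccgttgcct
Ambra1 (chr2:91729888-91730137, plus strand): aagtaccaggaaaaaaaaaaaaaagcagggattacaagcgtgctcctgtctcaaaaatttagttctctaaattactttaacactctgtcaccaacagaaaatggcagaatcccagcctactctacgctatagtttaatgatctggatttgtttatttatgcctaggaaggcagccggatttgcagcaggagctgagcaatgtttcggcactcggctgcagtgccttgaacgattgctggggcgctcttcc
CACGTG reads the same on both strands. It begins 186 bases before the start of Snx18 and 163 bases before that of Vamp4, where of 2 promoters listed the one with the match is shown, and these letters are not in the windows of Sox11 and Ambra1. Of 32851 promoters of this length 6.02% hold it, and it is in 2 of 12 reported Miz1 targets with an entry (16.7%). The first share counts promoters and the second counts genes with a match in any listed promoter, so the 2 are not directly comparable. A match describes the sequence and does not show that a factor binds.

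Between deltaPOZ and wild-type mice, 1 gene passed the threshold in edgeR. Sox11, which encodes an SRY-box factor active in embryonic neurons and in some lymphomas, lay at 6.15 and 11.4 CPM in the wild-type mice. In Lck mice it lay at 0.0225 and 0 CPM, and in Vav mice at 0.0182 and 0.0209 CPM. Both wild-type mice were thus far above all 4 deltaPOZ mice, with 792 counts against 3. Sox11 was lower in deltaPOZ mice (8.75 ± 3.68 CPM in wild type, SD, n = 2, against 0.0154 ± 0.0104 CPM, n = 4). This is a ratio of 603 with a counting interval of 206 to 2930 at 95% confidence. The log2 fold change was -9.00 (SE 0.87, adjusted p = 0.00687 by edgeR's quasi-likelihood test with Benjamini-Hochberg adjustment over 17470 genes). The ratio was 863 (counting interval 155 to 34100) against the Lck pair and 473 (130 to 3910) against the Vav pair, which share the wild-type mice, and neither passed alone (edgeR adjusted p = 0.142 and 0.178).

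Sox11 (ENSMUSG00000063632) lies on chromosome 12 at 27334264 to 27342574. In ICN leukaemias with p53 wt it was near 0 in both genotypes, with 0.0194 and 0.0183 CPM in Miz1-wt mice and 0.0191 to 0.136 CPM in deltaPOZ mice. The 2 wild-type p53-ko mice were therefore the only ones of the 12 ICN libraries above 1 CPM. The test of whether the deltaPOZ difference depends on p53 did not pass in edgeR (log2 -10.66, SE 1.39, adjusted p = 0.143) and passed in DESeq2 (adjusted p = 3.42e-06). The call on Sox11 was kept without wild-type mouse 1 (log2 -9.38, adjusted p = 0.014 by edgeR) and without wild-type mouse 2 (-8.46, 0.0339). It was lost without any 1 of the 4 deltaPOZ mice (edgeR adjusted p = 0.0913 to 0.269), where the log2 fold change lay between -10.19 and -8.54 and the remaining mouse of the pair was assumed to vary like the other groups.

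No other gene passed in the pooled comparison: 1 of 17470 genes was called (0.00572%), and 660 (3.78%) had an unadjusted p below 0.05, 277 higher and 383 lower. In this fit of all 16 libraries, the genes named from here on failed the adjustment over all genes, and their values describe these mice. DESeq2, run as an alternative, called 114 genes, of which 80 were immunoglobulin gene segments. In 4.4% of genes all deltaPOZ mice lay above both wild-type mice, and in 4.5% all lay below. Genes with the lowest p among those whose groups did not overlap are plotted per mouse.

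**Figure D1:**
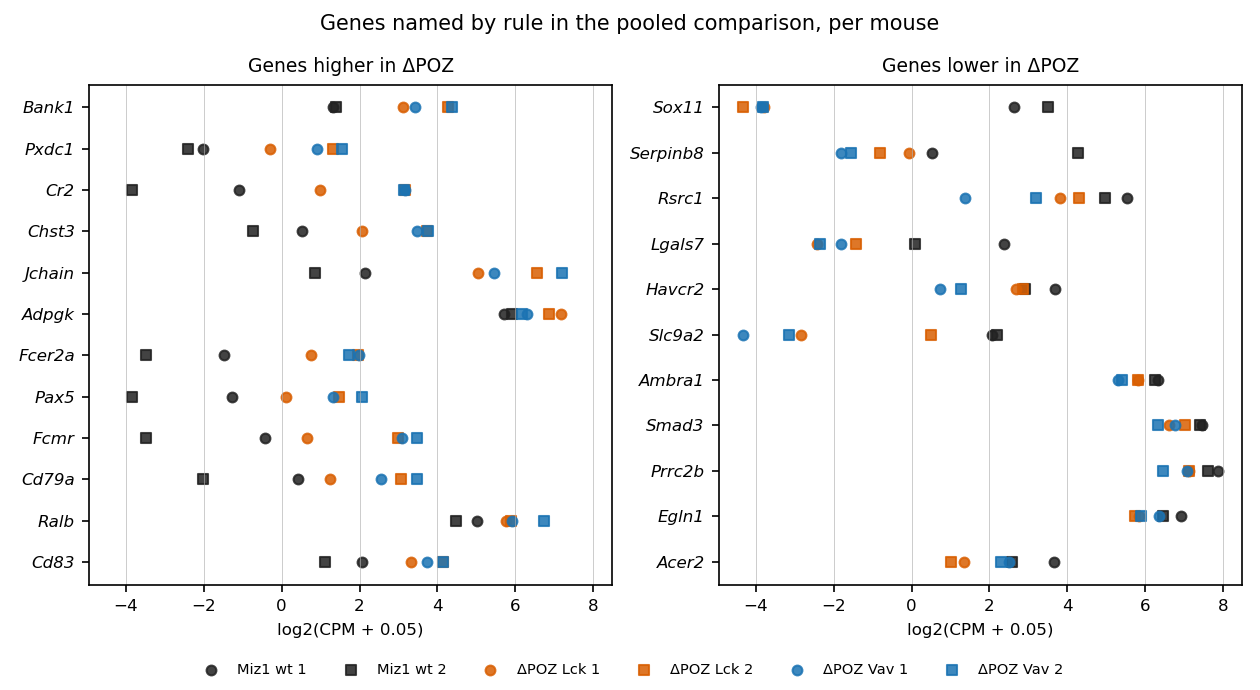
Level of each gene in each mouse as log2(CPM + 0.05), for the 12 higher and 11 of the 12 lower protein-coding genes with the lowest p whose deltaPOZ and Miz1-wt mice did not overlap. Black marks Miz1 wt, orange deltaPOZ Lck and blue deltaPOZ Vav, with circles for mouse 1 and squares for mouse 2. The black points of Sox11 lie at 6.15 and 11.4 CPM, far right of the others.

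Of the 12 genes named on the higher side, 5 were on the list of B cell markers. Bank1, an adaptor of B cell receptor signalling, lay at 2.43 and 2.56 CPM in wild-type mice, at 8.56 and 19.2 CPM in Lck mice and at 10.8 and 20.5 CPM in Vav mice. Its lowest deltaPOZ mouse was above both wild-type mice, and its log2 difference was 2.56 (SE 0.47, edgeR adjusted p = 0.653). Cr2, the complement receptor CD21, lay at 0.419 and 0.0198 CPM in wild-type mice, at 1.94 and 8.93 CPM in Lck mice and at 8.95 and 8.71 CPM in Vav mice. Lck mouse 1 was the lowest of the deltaPOZ mice for Cr2. Jchain, which links the subunits of secreted IgM and IgA, lay at 4.36 and 1.77 CPM, at 32.6 and 93.9 CPM in Lck mice and at 43.8 and 147 CPM in Vav mice. Mouse 2 was the higher of each deltaPOZ pair for Jchain. Pax5, the factor that commits cells to the B lineage, lay at 0.364 and 0.0198 CPM against 1.04 to 4.11 CPM in deltaPOZ mice. Fcer2a (CD23), Fcmr (the IgM Fc receptor), Cd79a (a signalling chain of the B cell receptor) and Cd83 (a surface protein of activated B and dendritic cells) also had no overlap between groups.

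Of 19 B cell markers tested, 0 passed over all genes, 13 had an unadjusted p under 0.05 and were higher with deltaPOZ (background 1.59%), and 14 had groups that did not overlap (background 4.4%). DESeq2 called 10 of them, all higher, against 114 of 17470 genes over all, of which 98 were higher. Their median log2 difference was 3.02, against -0.01 over all genes. In the Lck pair it was 2.61, with 12 at an unadjusted p under 0.05 (background 2.67%) and 14 without overlap (13.9%). In the Vav pair, which has the same controls, it was 3.42, with 13 (1.96%) and 18 (16.3%). Without wild-type mouse 1 the median was 4.72, and without wild-type mouse 2 it was 2.41. The mean level of the markers was 1.33 and -0.04 log2 CPM in wild-type mice, 2.73 and 3.79 in Lck mice and 3.60 and 4.26 in Vav mice. Both wild-type mice were lowest. Defining B cell markers were near 0 in wild-type mouse 2, where Pax5 and Ebf1, a factor that specifies B cells, were at 0.0198 CPM. In bulk RNA, fewer B cells and less of these transcripts per cell cannot be told apart.

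Among the B cell markers, Igkc, the constant part of the kappa light chain, lay at 6.21 and 3.55 CPM in wild-type mice. It lay at 76.7 and 183 CPM in Lck mice and at 60.1 and 243 CPM in Vav mice, all above wild type (log2 4.85, SE 1.14, edgeR adjusted p = 0.707). Ighm, the heavy chain of IgM, lay at 164 and 225 CPM in wild-type mice and at 569 to 1080 CPM in deltaPOZ mice. Ms4a1 (CD20) lay at 2.43 and 0.0397 CPM in wild-type mice and at 6.15 to 34.3 CPM in deltaPOZ mice. The markers without such a pattern were Ebf1, Blk, Fcrla, Spib and Cd72. For Spib, a factor of B cells and plasmacytoid dendritic cells, wild-type mouse 2 was highest (77.1 CPM), followed by Lck mouse 1 (70.4 CPM).

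The immunoglobulin gene segments, grouped by annotation after their values were seen, went the same way. Of 165 tested, 154 were higher in all deltaPOZ mice than in both wild-type mice (background 4.4%), with a median log2 difference of 5.11. A segment can pass the low-count filter through the groups where it is high, so this count is no separate support. They summed to 197 and 237 CPM in wild-type mice, 899 and 1927 CPM in Lck mice and 880 and 2656 CPM in Vav mice. T cell receptor segments did not share this: of 83 tested, 1 was higher (background 4.4%) and 4 lower (4.5%) in all deltaPOZ mice, with a median of 0.09. In p53-wt ICN leukaemias the mean of the B cell markers was 3.64 and 1.99 log2 CPM with Miz1 wt and 3.48 to 3.98 with deltaPOZ. There 1 wild-type mouse lay among the deltaPOZ mice. Single markers varied in this p53-wt set. Bank1 had no overlap: its Miz1-wt mice showed 8.33 and 5.07 CPM, below every deltaPOZ mouse (11.1 to 20.2 CPM). Cr2 showed 3.01 and 1.30 CPM against 5.82 to 20.8 CPM. Pax5 and Fcer2a were also higher in every deltaPOZ mouse, whereas Cd79a, Igkc and Iglc2 overlapped between the genotypes. The test of the difference between p53 backgrounds called 0 of the 19 markers by edgeR, while 5 had an unadjusted p under 0.05 with a larger deltaPOZ difference in p53-ko leukaemia (background 1.32%, or 2.6% in either direction). DESeq2 called Igkc and Iglc2 in that test, against 27 of 17470 genes over all.

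**Figure D2:**
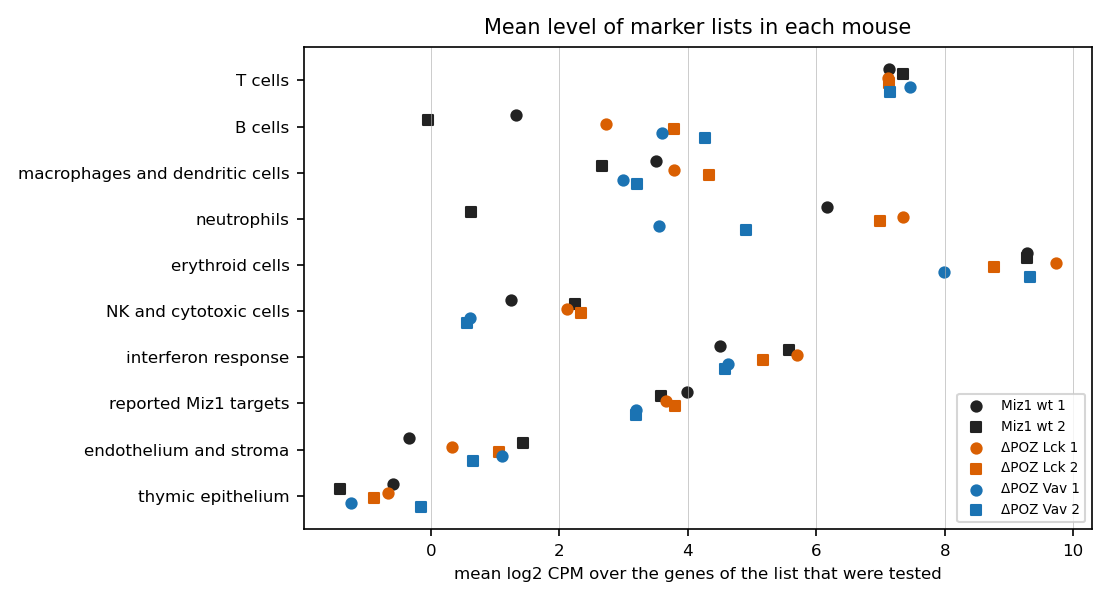
Mean log2 CPM over the tested genes of 10 lists in each mouse, with black for Miz1 wt, orange for deltaPOZ Lck and blue for deltaPOZ Vav. B cell markers lie at -0.04 and 1.33 in wild-type mice and at 2.73 to 4.26 in deltaPOZ mice, whereas neutrophil markers spread from 0.63 to 6.16 within wild type alone.

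The other higher genes included Pxdc1 and Chst3, a chondroitin sulfotransferase. Chst3 lay at 1.40 and 0.556 CPM in wild-type mice and at 4.12 to 13.5 CPM in deltaPOZ mice, lowest of these in Lck mouse 1. Adpgk, an ADP-dependent glucokinase, lay at 52.5 and 60.5 CPM in wild-type mice, at 145 and 116 CPM in Lck mice and at 78.9 and 71.8 CPM in Vav mice. The Lck pair was highest, with a pooled log2 difference of 0.81 (SE 0.20). Adpgk and Bbs4 overlap on opposite strands, and without a stated strand setting their reads cannot be told apart. The same holds for Rsrc1 (with Shox2), Znhit3 (Myo19), Csf1r (Hmgxb3), Grn (Fam171a2), Mtmr7 (Vps37a), Hacd4 (Focad), Dnaaf1 (Taf1c), Kif7 (Ticrr) and Gzmk (Esm1). Ralb, a small GTPase of vesicle exocytosis, lay at 32.04 and 22.1 CPM in wild-type mice and at 53.7 to 107 CPM in deltaPOZ mice, highest in Vav mouse 2. In p53-wt ICN leukaemias its means were 45.2 CPM with Miz1 wt and 38.0 CPM with deltaPOZ, so it was not higher with deltaPOZ there.

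On the lower side, Serpinb8, an intracellular protease inhibitor, lay at 1.40 and 19.2 CPM in wild-type mice and at 0.236 to 0.901 CPM in deltaPOZ mice. Wild-type mouse 2 carried most of its difference: the log2 value was -4.56 (SE 0.81), -1.65 without that mouse and -5.46 without wild-type mouse 1, when it passed (adjusted p = 0.014 by edgeR). Rsrc1, a splicing factor, lay at 46.1 and 31.2 CPM in wild-type mice, at 14.0 and 19.7 CPM in Lck mice and at 2.55 and 9.12 CPM in Vav mice. The Vav pair was lowest, and the pooled log2 difference was -1.96 (SE 0.48, edgeR adjusted p = 0.707). In p53-wt ICN leukaemias Rsrc1 had means of 47.4 CPM with Miz1 wt and 7.07 CPM with deltaPOZ, so deltaPOZ was lower there too.

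Smad3, a transducer of TGF-beta signals, lay at 175 and 168 CPM in wild-type mice and at 80.0 to 130 CPM in deltaPOZ mice. In p53-wt ICN leukaemias its means went the other way, with 121 CPM with Miz1 wt and 142 CPM with deltaPOZ. The difference between p53 backgrounds did not pass for Smad3 (edgeR adjusted p = 0.9999). Havcr2 (TIM-3), an inhibitory receptor of T cells, lay at 12.7 and 7.50 CPM, at 6.42 and 7.17 CPM in Lck mice and at 1.62 and 2.36 CPM in Vav mice. Its Lck mice lay just under wild-type mouse 2, and its Vav mice clearly below. Slc9a2, a sodium-proton exchanger, lay at 4.11 and 4.49 CPM in wild-type mice against 0.0901 and 1.35 CPM in Lck mice and 0 and 0.0626 CPM in Vav mice. Acer2 (an alkaline ceramidase), Egln1 (an oxygen-sensing hydroxylase), Prrc2b and Lgals7 (a galectin) were also among the genes named as lower.

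Of 17 genes reported as Miz1 targets, 0 passed over all genes in the pooled comparison by edgeR or DESeq2 and 4 had an unadjusted p under 0.05, all lower with deltaPOZ (background 2.19%). Their median log2 difference was -0.31 (-0.09 in the Lck and -0.60 in the Vav pair), and it was -0.01 without wild-type mouse 1 and -0.56 without wild-type mouse 2. In the Vav pair 5 had an unadjusted p under 0.05 (background 2.62%) and 9 lay below wild type without overlap (16.3%). There edgeR called 0 of the 17, and DESeq2 called 1, Ambra1, against 118 of 17470 genes over all. Ambra1, a scaffold that starts autophagy, lay at 80.7 and 76.6 CPM in wild-type mice, at 56.5 and 55.8 CPM in Lck mice and at 39.3 and 42.3 CPM in Vav mice. The 3 pairs did not overlap with each other. The pooled log2 difference of Ambra1 was -0.72 (SE 0.19, edgeR adjusted p = 0.707), and -0.68 without wild-type mouse 1. Vamp4, a SNARE of endosome to Golgi transport, lay at 24.02 and 19.4 CPM in wild-type mice, at 9.64 and 19.0 CPM in Lck mice and at 11.97 and 10.9 CPM in Vav mice. Lck mouse 2 lay just under the lower wild-type mouse, and the log2 difference was -0.76 (SE 0.30).

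The other targets at that p were Cdkn1a and Rpl22. Cdkn1a, the cell cycle inhibitor p21 and a main p53 target, lay at 1.93 and 9.01 CPM in wild-type mice, at 1.04 and 2.36 CPM in Lck mice and at 0.436 and 0.501 CPM in Vav mice. Lck mouse 2 lay between the wild-type mice. Rpl22, a protein of the large ribosomal subunit, lay at 513 and 581 CPM in wild-type mice, at 574 and 420 CPM in Lck mice and at 278 and 304 CPM in Vav mice. Its Lck mice overlapped with wild type and its Vav mice did not. The log2 difference of Rpl22 was -0.14 (SE 0.26) in the Lck pair and -0.91 (SE 0.26) in the Vav pair, and the pairs differed by 0.77 (SE 0.26, edgeR adjusted p = 0.784). Rpl22l1, the paralog of Rpl22, lay at 41.0 and 40.2 CPM in wild-type mice, at 42.5 and 78.8 CPM in Lck mice and at 129 and 88.8 CPM in Vav mice. In p53-wt ICN leukaemias Rpl22 lay at 452 and 535 CPM with Miz1 wt. There both deltaPOZ pairs were lower, at 373 and 324 CPM in Lck mice and at 356 and 329 CPM in Vav mice. The other 13 targets, among them the integrin genes Itga6 and Itgb1, the survival gene Bcl2 and the p15 gene Cdkn2b, had an unadjusted p above 0.05.

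Snx18 and Znhit3 were named because an earlier analysis of all 16 libraries, these included, had named them, so their values here are no independent support. Snx18, a sorting nexin of endocytic and autophagic membranes, lay at 67.6 and 38.7 CPM in wild-type mice, at 40.0 and 40.5 CPM in Lck mice and at 9.53 and 17.1 CPM in Vav mice. Lck mice lay between the wild-type mice and Vav mice below both. The log2 difference was -0.40 (SE 0.33) in the Lck pair and -1.995 (SE 0.34) in the Vav pair (edgeR adjusted p = 0.56). Without wild-type mouse 1 it was -1.54 in the Vav pair, and the pooled value was -0.74, against -1.20 with that mouse. DESeq2 called Snx18 in the Vav pair (adjusted p = 5.404e-05), pooled (0.0223) and between Lck and Vav. Snx18 lies on chromosome 13, whose median, relative to the 12 ICN libraries, was -0.11 log2 in Vav mouse 2 and -0.02 in Vav mouse 1; its part in the Snx18 values was not tested. Znhit3, a factor of snoRNP assembly, lay at 20.6 and 23.0 CPM in wild-type mice and at 7.24 to 13.8 CPM in deltaPOZ mice, with no overlap.

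**Figure D3:**
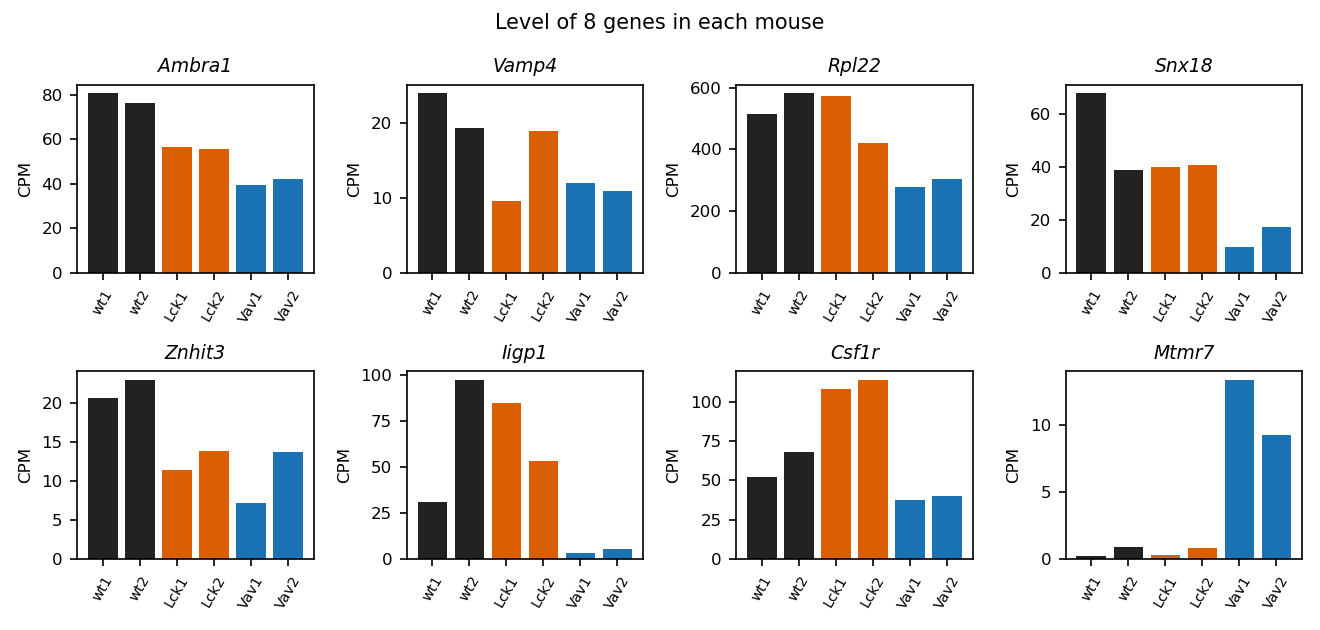
Level in CPM of 8 genes in each mouse, 1 bar per mouse, with black for Miz1 wt, orange for deltaPOZ Lck and blue for deltaPOZ Vav. Ambra1 and Znhit3 are lower in all 4 deltaPOZ mice, while Snx18 and Rpl22 are lower than both wild-type mice in the Vav pair and overlap with wild type in the Lck pair.

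The pathway lists gave few differences in the pooled comparison. All members of the 30 lists failed the adjustment over all genes except Sox11, which was on the list of immature and progenitor genes. Of 24 p53 targets, 3 had an unadjusted p under 0.05, all lower with deltaPOZ (background 2.19%): Cdkn1a, Pmaip1, which encodes the death factor NOXA, and Eda2r, a receptor of the TNF family. Eda2r lay at 1.20 and 3.06 CPM in wild-type mice and at 0.104 to 1.05 CPM in deltaPOZ mice. The median log2 difference of the p53 targets was -0.40, and -0.04 without wild-type mouse 1. The mean of the 8 CDK inhibitors was 4.12 and 4.35 log2 CPM in wild-type mice and 3.39 to 3.96 in deltaPOZ mice, without overlap. Few single members showed this. Of the 8, 1 was lower at an unadjusted p under 0.05, which was Cdkn1a again (background 2.19%). Only 1, Cdkn2c, was lower without overlap (4.5%), at 197 and 214 CPM in wild-type mice and 149 to 192 CPM in deltaPOZ mice.

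Of 17 genes of IL-7 and JAK-STAT signalling, 2 had an unadjusted p under 0.05, both lower with deltaPOZ (background 2.19%), and 4 were lower without overlap (4.5%). The first pair were Cish, a feedback inhibitor of cytokine receptors (26.8 and 32.6 CPM in wild-type mice, 10.4 to 21.8 CPM in deltaPOZ mice), and the kinase gene Pim1 (459 and 241 CPM against 121 to 234.5 CPM). Neither overlapped between groups, although Pim1 in Vav mouse 2 reached close to wild-type mouse 2. Of 21 Notch targets and receptors, edgeR and DESeq2 called 0, and 0 had an unadjusted p under 0.05 in edgeR, with a median of 0.00. Notch1 lay at 840 and 856 CPM in wild-type mice and at 277 to 892 CPM in deltaPOZ mice, lowest in Vav mouse 2. Of 34 ribosome biogenesis and MYC target genes 33 had a positive log2 difference, with a median of 0.31. That median was -0.05 without wild-type mouse 1 and 0.80 without wild-type mouse 2, so its direction rests on wild-type mouse 1.

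Autophagy and membrane transport genes, which include reported Miz1 targets, were counted as groups. Of 30 autophagy genes, 1 had an unadjusted p under 0.05 in the pooled comparison, which was Ambra1, a share near that of all genes (2.19% lower). In the Vav pair 5 had one, all lower (background 2.62%). In the Vav pair 10 of the 30 lay below wild type without overlap (background 16.3%). Of 30 SNAREs and sorting nexins, Vamp4 and Snx18 were lower at that p in the pooled comparison (background 2.19%), and 3 were in the Vav pair (2.62%). DESeq2 called Snx18 in both comparisons and Ambra1 in the Vav pair. Over all 17470 genes it called 114 pooled and 118 for Vav. In the Lck pair 0 members of either list were at that p by edgeR.

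Each pair was also compared with wild type alone. For the Lck pair there were 0 calls by edgeR (0.0%) and 654 genes (3.74%) with an unadjusted p under 0.05. DESeq2 called 69, of which 48 were immunoglobulin segments. Ear6, an eosinophil-associated ribonuclease of the RNase A family, lay at 13.1 and 12.8 CPM in Lck mice against 1.57 and 0.417 CPM in wild-type and 1.51 and 1.82 CPM in Vav mice. Hacd4, an enzyme of very long chain fatty acid synthesis, lay at 12.7 and 12.03 CPM in Lck mice against 3.47 and 1.99 CPM in wild-type and 1.46 and 3.49 CPM in Vav mice. For both genes the Lck mice stood above all others. Ear6 may share reads with its close relatives, and its value is uncertain.

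For the Vav pair there were likewise 0 calls by edgeR (0.0%) and 800 genes (4.58%) with an unadjusted p under 0.05. DESeq2 called 118, of which 69 were immunoglobulin segments. Beside Snx18, Mtmr7, a phosphatase of phosphoinositides, lay at 13.3 and 9.23 CPM in Vav mice against 0.252 to 0.893 CPM in the other 4. Iigp1, an interferon-induced GTPase, lay at 3.24 and 5.37 CPM in Vav mice, against 30.9 and 97.5 CPM in wild-type and 84.8 and 53.4 CPM in Lck mice. Their log2 differences from wild type were 4.28 (SE 0.89) and -3.90 (SE 0.80), each with an edgeR adjusted p of 0.561. DESeq2 called both. In p53-wt ICN leukaemias Mtmr7 lay at 6.54 and 9.91 CPM with Miz1 wt, at 7.77 and 7.34 CPM in Lck mice and at 0.0764 and 0.171 CPM in Vav mice, so that there the Vav pair was lowest. The difference between p53 backgrounds was tested for the pooled deltaPOZ mice, and it did not pass in edgeR (log2 5.20, SE 1.05, adjusted p = 0.9999) but did in DESeq2.

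The Lck and Vav pairs were then tested against each other, a comparison that uses no wild-type mouse. There were 0 calls by edgeR (0.0%), while 941 genes (5.39%) had an unadjusted p under 0.05, 738 higher in Lck and 203 (1.16%) lower. DESeq2 called 128, of which 0 were immunoglobulin segments. In 21.2% of genes both Lck mice lay above both Vav mice, and in 17.9% both lay below. Genes of myeloid cells led the higher side. Csf1r, the receptor for the macrophage growth factor, lay at 108 and 114 CPM in Lck mice, at 37.2 and 40.1 CPM in Vav mice and between them, at 52.2 and 68.4 CPM, in wild-type mice. Mpeg1, a pore-forming protein of macrophages, lay at 85.8 and 120 CPM in Lck mice, at 28.9 and 37.1 CPM in Vav mice and at 89.7 and 52.0 CPM in wild-type mice. Grn, the growth factor progranulin, lay at 43.9 and 39.3 CPM in Lck mice against 10.9 and 15.1 CPM in Vav mice. Their log2 differences were 1.52 (SE 0.30), 1.64 (SE 0.30) and 1.68 (SE 0.32), each with an edgeR adjusted p of 0.58.

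Of 18 macrophage and dendritic cell markers, 11 had an unadjusted p under 0.05 and were higher in Lck mice (background 4.22%), among them C1qa, C1qb and C1qc of the complement C1q complex, Adgre1 (F4/80) and Lyz2 (lysozyme). DESeq2 called 6 of the 18, all higher in Lck, against 128 of 17470 genes over all, of which 113 were higher. Their median log2 difference was 1.33, against 0.02 over all genes, and they summed to 1816 and 1437 CPM in Lck, 370 and 451 CPM in Vav and 542 and 554 CPM in wild-type mice. Lyz2 alone made up a large part of the Lck sums, at 998 and 693 CPM. It lay at 66.6 and 153 CPM in Vav mice and at 153 and 21.2 CPM in wild-type mice. All 17 neutrophil markers were higher in both Lck than in both Vav mice (background 21.2%), with 6 at an unadjusted p under 0.05 and a median of 2.88. The neutrophil markers summed to 9822 and 6990 CPM in Lck, 598 and 1696 CPM in Vav and 4178 and 62.0 CPM in wild-type mice. S100a8, a calcium-binding protein of granulocytes, lay at 1811 and 1627 CPM in Lck mice, 101 and 344 CPM in Vav mice and 915 and 11.7 CPM in wild-type mice. Both Lck mice lay above the higher wild-type mouse, and the wild-type mice lay on either side of the Vav pair. Of the 17 markers, 15 were higher in both Lck than in both wild-type mice (background 13.9%).

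Of 16 NK and cytotoxic cell markers, 7 were higher in Lck mice at an unadjusted p under 0.05 (background 4.22%) and 1, Klrb1c, was lower (1.16%). Gzmk, a granule protease, lay at 4.64 and 6.34 CPM in Lck mice, 0.400 and 0.418 CPM in Vav mice and 2.18 and 5.76 CPM in wild-type mice. Gzmk was lowest in the Vav pair, and its Lck mice lay near wild type. At that p, 7 of 34 interferon response genes had higher levels in Lck mice (background 4.22%), among them Iigp1, Gbp2 and the nucleic acid sensor Zbp1, and 22 were higher without overlap between the pairs (21.2%). Zbp1 lay at 24.3 and 23.6 CPM in Lck mice, 9.64 and 6.95 CPM in Vav mice and 12.6 and 21.95 CPM in wild-type mice. The part of the myeloid and NK markers in the interferon values was not tested. Ribosome biogenesis genes were on the other side: 19 of 34 were lower in both Lck than in both Vav mice (background 17.9%), with a median of -0.33 and 1, Tsr1, at an unadjusted p under 0.05.

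Beside Mtmr7, the genes named as lower in Lck were Wdr93, Dnaaf1, Reep1 and Kif7. Wdr93, a protein with WD repeats, lay at 1.33 and 0.808 CPM in Lck mice, 7.64 and 34.03 CPM in Vav mice and 4.92 and 11.9 CPM in wild-type mice, so that Lck was below both other pairs. Dnaaf1, an assembly factor of axonemal dynein, lay at 13.5 CPM in Vav mouse 2 and at 0.121 to 0.837 CPM in all others. Reep1, a shaper of the endoplasmic reticulum, lay at 33.8 and 31.8 CPM in Vav mice, 14.2 and 19.7 CPM in Lck mice and 27.5 and 23.5 CPM in wild-type mice. Kif7, a kinesin of hedgehog signalling, lay at 29.0 and 28.1 CPM in Vav, 13.5 and 15.9 CPM in Lck and 18.7 and 20.2 CPM in wild-type mice. For both genes wild type lay between the pairs.

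The level of Xist moved with Miz1 status. Xist, the RNA that silences an X chromosome in female cells, lay at 512 and 717 CPM in wild-type mice, 44.6 and 43.5 CPM in Lck mice and 17.6 and 15.2 CPM in Vav mice. The 3 pairs did not overlap, and in a fit of the 6 libraries alone Xist passed (log2 -4.51, edgeR adjusted p = 0.00408). Every library also held Y-linked transcripts: Ddx3y, a helicase, lay at 100.4 and 28.9 CPM in wild-type mice, 164 and 114 CPM in Lck mice and 144 and 105 CPM in Vav mice. Uty, a demethylase of the Y chromosome, lay at 43.4 and 17.0 CPM in wild-type mice and at 41.1 to 55.9 CPM in deltaPOZ mice. Eif2s3y, a subunit of a translation initiation factor, lay at 103 and 34.7 CPM in wild-type mice and at 79.1 to 101 CPM in deltaPOZ mice. For Uty and Eif2s3y wild-type mouse 1 lay within or above the deltaPOZ mice. Each of the 6 samples thus held transcripts of both kinds. Of these mice, wild-type mouse 2 had the most Xist and the least of the Y-linked genes. Xist level and Miz1 status cannot be told apart in these 6 mice, for Sox11 and for the B cell genes alike.

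**Figure D4:**
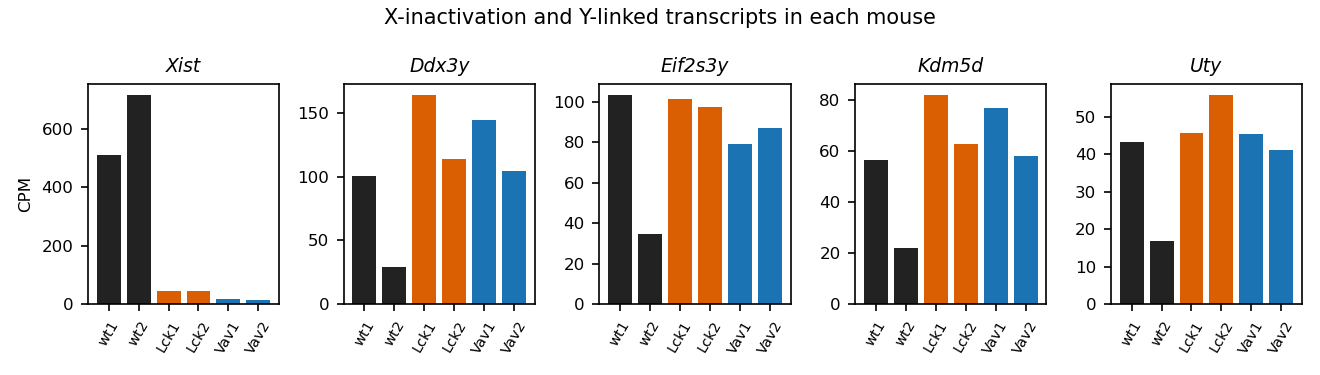
Level in CPM of Xist and 4 Y-linked genes in each mouse, 1 bar per mouse, with black for Miz1 wt, orange for deltaPOZ Lck and blue for deltaPOZ Vav. Xist lies at 512 and 717 CPM in wild-type mice and at 15.2 to 44.6 CPM in deltaPOZ mice, while every mouse holds the Y-linked transcripts.

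Levels along whole chromosomes were also described. For each library the median over a chromosome's genes was taken of the log2 difference from the gene's median over the 12 ICN libraries. Vav mouse 2 had the most chromosomes away from 0: its medians were above 0.1 on chromosomes 4, 5, 11, 14, 15 and 16 and below -0.1 on chromosomes 8, 9, 13, 18 and 19, from -0.12 to 0.19. Their SD over 19 autosomes was 0.115 there, 0.0298 to 0.0561 in the other 5 mice and 0.0166 to 0.0754 in the p53-wt mice. The 5404 genes of the higher chromosomes had a median of 0.15 and the 3438 of the lower ones -0.11, a ratio of 1.21. These chromosomes were picked by their medians in this same mouse, so the gap gives a size and is no separate support. Among the other 5 mice, wild-type mouse 2 reached 0.17 on chromosome 4 and Lck mouse 2 reached 0.11 on chromosome 1 and 0.12 on chromosome 3. The largest single values were in p53-wt mice, 0.31 on chromosome 14 in Vav mouse 1 and 0.26 on chromosome 3 in Vav mouse 2. Sox11 lies on chromosome 12, whose medians were -0.08 to 0.02 in the 6 mice.

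**Figure D5:**
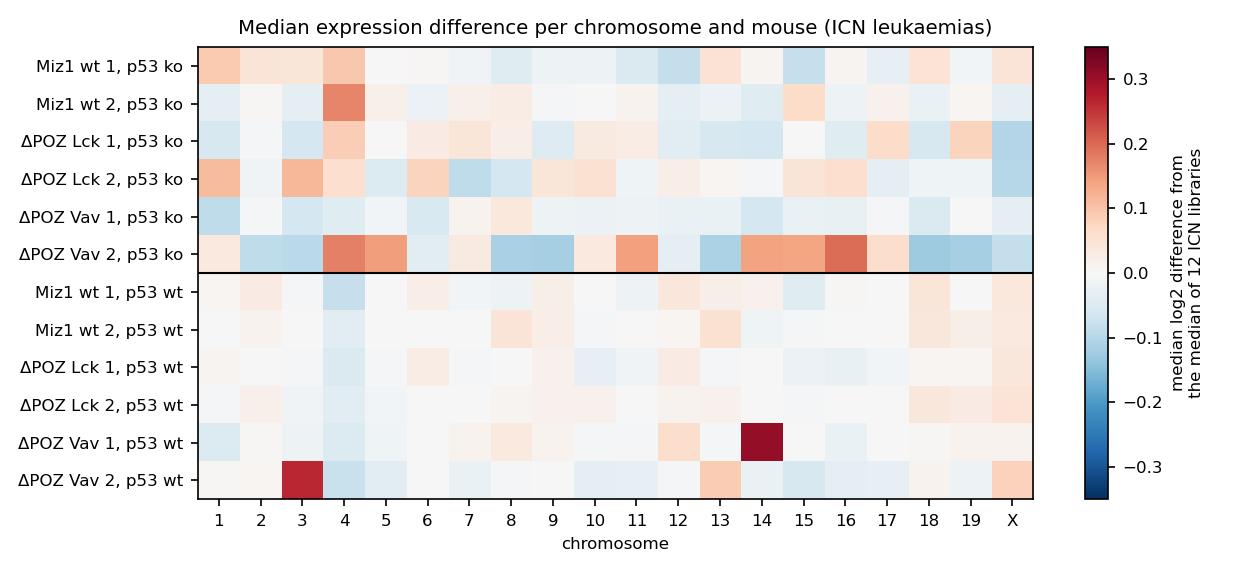
Median log2 difference of each chromosome's genes from the median of the 12 ICN libraries, with 1 row per mouse (p53 ko above the line, p53 wt below) and 1 column per chromosome, red for higher and blue for lower. The row of deltaPOZ Vav mouse 2 with p53 ko has the most coloured columns, 6 above 0.1 and 5 below -0.1.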

How the data were processed

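Total RNA was extracted with a MagMax-96 kit and made into stranded mRNA libraries with a TruSeq kit, per the labels' protocols. The authors deposited 1 table of raw counts per mouse with 41214 Ensembl identifiers. TopHat2 2.0.10, HTSeq, SAMtools and DESeq are named in the submitters' processing notes, with GRCm38 and mm10 as builds and no role or order. Annotation release and strand setting: not given in the sources used here. Left out were the 5 totals that end each deposited count table. In the 6 libraries, alignments that were not unique took 45.8% to 63.7% of all that were counted. Those outside genes took 14.2% to 16.7% and ambiguous ones 0.138% to 0.331%, so genes kept 20.6% to 39.6%. Whether a read with several places was counted more than once was not checked, so these are not shares of reads. Counts of near-identical genes are therefore uncertain.

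Names and coordinates came from GENCODE M21 on GRCm38, which held 40340 identifiers, and promoters from RefSeq. All 16 libraries were fitted as 8 groups in edgeR 4.0.16 under R 4.3.3 (filterByExpr, 17470 genes; TMM; quasi-likelihood F test; 8 residual degrees of freedom), with Benjamini-Hochberg adjustment over all genes in each of 5 contrasts and a threshold of 0.05. The SE is the log2 fold change divided by the square root of F. List means used log2 CPM with a prior count of 2. Counting intervals are exact at 95% and cover counting error only. The fit was tested on simulated data.

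Genes were named by a rule: those called, and the lowest by p among protein-coding genes of at least 1 CPM whose groups did not overlap (12 per direction pooled, 6 per pair, 5 for Lck against Vav), excluding receptor segments and sex-linked genes. For the p53 backgrounds the rule took the 5 protein-coding genes of at least 1 CPM with the lowest p, overlapping or not. It adds up to 4 genes per list and Zbtb17, Trp53, Notch1, Znhit3, Snx18 and Hfm1. Some items that the rule or the lists hold are not reported here. Members and lists were chosen with earlier results of these data known. Alternatives were DESeq2 1.42.0, other size factors, no filter, robust dispersion, fewer libraries, deltaPOZ as 1 group, and leaving out each mouse.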

Additional observations from a re-analysis of the deposited data

Results flagged for a closer look

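Among 54 groups of 4 deltaPOZ mice that were checked for a mouse far from the others, 7 had one. Its gap to the nearest other mouse, as a share of the group's range in log2 CPM, was above the 95% critical value of Dixon's test, which chance passes in about 1 in 20 groups. The gap was 0.982 for Cr2, 0.8292 for Chst3 and 0.833 for Fcmr, in each of which Lck mouse 1 was lowest. It was 0.834 for Ralb, highest in Vav mouse 2, and 0.918 for Prrc2b, lowest in Vav mouse 2. For Sox11 it was 0.839, where Lck mouse 2 had 0 counts and the others 1 each. For the mean of the T cell markers it was 0.945, highest in Vav mouse 1.

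Of the genes named for Lck against Vav, 6 had both Lck mice on one side of both wild-type mice and both Vav mice on the other. How many of all genes do so was not counted. Over all genes, both Lck mice lay above both Vav mice in 21.2% and below them in 17.9%. The log2 difference of Lck from Vav was 3.40 for Ly6i, 1.68 for Grn, 1.52 for Csf1r and 1.91 for Gna15, which were higher in Lck, and -0.95 for Reep1 and -0.96 for Kif7, which were lower. The test of this difference passed for none of the 6 by edgeR (adjusted p = 0.58 to 0.708). The 6 had been named for a low unadjusted p in this same comparison, so that p is no support.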

How the results depend on the processing

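Among 13 alternative fits, the count of genes in the pooled comparison was 1 with size factors by RLE, with the 12 ICN libraries, with deltaPOZ as 1 group and with robust dispersion. With DESeq2 it was 114 in the pooled comparison, 69 for Lck, 118 for Vav, 128 for Lck against Vav and 27 for the difference between p53 backgrounds. Without the filter on low counts (30095 genes) these counts were 464, 408, 534, 476 and 378, since the prior degrees of freedom became infinite and each gene took the spread of the trend; of the 464, 455 also pass the filter. With the 6 libraries alone the counts were 2 pooled (Sox11 and Xist) and 1 for Vav (Xist). With the 12 ICN libraries they were 1 for Vav (Hist1h2al) and 2 for Lck against Vav (Hist1h2al and Trbv12-2). Leaving out 1 mouse gave 0 to 3 genes pooled: 3 without wild-type mouse 1 (Sox11, Serpinb8 and Trbv12-1), 2 without wild-type mouse 2 (Sox11 and Vwce) and 0 without each deltaPOZ mouse. Genes at an unadjusted p under 0.05 then numbered 573 to 2371, most without wild-type mouse 2, and the cause was not tested. Of the log2 values of named genes, 2252 kept their direction and side of the threshold, 118 passed only under the alternative, 4 no longer passed and 34 without a call changed sign, 21 of the latter without wild-type mouse 1. Of the list medians 1361 moved by less than the SD between deltaPOZ mice and 109 by more. With genes of a mean log2 CPM of at least 2, chosen after seeing the data, Vav mouse 2 had 6 autosomes above 0.1 and 9 rather than 5 below -0.1. Wild-type mouse 1 had the least depth. No paired analysis was possible because the replicate numbers follow accession order and pair no mice.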

Other observations

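The leading T cell receptor beta variable segment differed between the 6 leukaemias, while some segments ranked high in several. Trbv12-2 led in Vav mouse 1 and was second in Vav mouse 2 (27.4%), and Trbv13-2 was second in wild-type mouse 1 (37.7%) and Lck mouse 1 (11.6%). Trbv16 took 77.5% of the Trbv counts in Lck mouse 1 (exact binomial interval 76.8% to 78.1%) and Trbv19 took 48.5% in wild-type mouse 1 (47.8% to 49.3%). The leading segment was Trbv15 in wild-type mouse 2 (30.2%), Trbv5 in Lck mouse 2 (22.7%), Trbv12-2 in Vav mouse 1 (30.7%) and Trbv17 in Vav mouse 2 (34.2%). In the p53-wt ICN leukaemias the leading segment took 33% to 96.8%.

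Immunoglobulin heavy chain variable counts were spread more evenly. The leading Ighv segment took 5.75% to 9.3% in 5 of the 6 mice and 23.3% in Vav mouse 2, where it was Ighv1-82 (22.6% to 24%). The wild-type mice had only 226 and 172 Ighv counts, against 3018 to 13587 in deltaPOZ mice. Reads that fit several segments are left out of these counts, so the shares hold for uniquely aligned reads.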
